A study of Sus scrofa with 2 samples.

Results

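The genes described here are 39 S-phase genes, the set that single-cell software commonly scores to find cells that copy their DNA, followed across the cell lineages of pig skin. They were taken by gene symbol from the deposited list of 31908 genes, in which 36 of the 39 were present under their symbol. PRIM1, UBR7 and RRM2 were not. Cells of dorsal skin from healthy, young male farm pigs were profiled with a 10x Genomics 3′ droplet kit. The kit tags transcripts with unique molecular identifiers (UMIs) before amplification. One library was prepared from freshly dissociated skin cells that received no treatment, and 1 library from skin cells that had been frozen in fetal bovine serum with DMSO and thawed, called cryopreserved here. In both, dead cells and cell doublets had been removed by flow sorting. The protocol text attached to both samples describes freezing, whereas the titles and treatment labels mark 1 sample as fresh. It is not stated whether 1 animal gave both libraries. Since each condition has 1 library, there is no spread between samples to test against, no p-value is given, and the 95% intervals below cover counting error only.

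DNA replication starts at origins, where the MCM helicase is loaded in G1 and switched on at S-phase entry together with CDC45 and the GINS complex. Polymerases held on DNA by the PCNA clamp then copy both strands, while nucleotide synthesis, Okazaki fragment processing, checkpoint proteins and histone chaperones keep pace. Many of these genes are switched on by E2F transcription factors before S phase. In skin, most dividing keratinocytes sit in the basal layer of the epidermis and in hair follicles. Most dermal fibroblasts, mast cells and endothelial cells of adult skin are quiescent, but the pigs here were young, so this need not hold for them.

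The promoters are shown first because the E2F site is the sequence that this gene set is best known for sharing. RefSeq (Sscrofa11.1) gave a start site for 38 of the 39 genes. A window from 250 bases before to 50 bases after each annotated start was searched on both strands for the E2F-type words TTTCCCGC, TTTCGCGC, TTTGCCGC and TTTGGCGC. At least 1 of them lay in 12 of the 38 windows (31.6%), against 3.36% of the windows of 19531 protein-coding genes. The CCAAT box (CCAAT) lay in 21 of the windows (55.3%, against 35.4% of all windows), and the CHR word TTTGAA, which is typical of mitosis genes, in 3 (7.89%, against 14.0%). The promoters of the G2/M genes, a list of mitosis genes used for comparison, showed another mix: of 53 windows, 7 held an E2F-type word (13.2%), 41 a CCAAT box (77.4%) and 29 the CHR word (54.7%). The genes whose windows held an E2F-type word were CASP8AP2, WDR76, TIPIN, ATAD2, DSCC1, TYMS, UBR7, POLD3, CHAF1B, HELLS, MCM6 and POLA1. A match of these letters is a description of the window and does not show that a factor binds there.

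Stretches are printed for the 3 genes with the most UMIs whose words lay wholly before the annotated start, with the words in capitals and each sequence read 5′ to 3′ on the strand of the gene. The limit to words before the start was set after the windows had been read. ATAD2 and POLD3 had more UMIs than these 3 genes, and TYMS had more than TIPIN, but their words lay across or after the start. POLA1, the catalytic subunit of the primase-associated polymerase alpha, had a word that began 79 bases before its start (chrX:20756565-20756632, plus strand). MCM6, a subunit of the helicase, had 3 matches, the first 128 and the last 62 bases before its start, and the first 2 overlap (chr15:15923480-15923613, plus strand). TIPIN, a partner of the fork protection protein TIMELESS, had a word that began 9 bases before its start (chr1:164369298-164369336, minus strand).
POLA1: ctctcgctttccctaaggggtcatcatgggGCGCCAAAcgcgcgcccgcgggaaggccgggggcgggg
MCM6: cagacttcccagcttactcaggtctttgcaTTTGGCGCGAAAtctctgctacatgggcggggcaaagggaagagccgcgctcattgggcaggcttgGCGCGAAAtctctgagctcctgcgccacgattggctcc
TIPIN: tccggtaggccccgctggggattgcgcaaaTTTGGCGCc

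Cells were kept within the study's maxima of 4500 genes, 30000 UMIs and 10% mitochondrial UMIs, which left 2775 of 4379 fresh barcodes and 4223 of 4860 cryopreserved barcodes. They held 32274985 and 36687009 UMIs, with a median of 11017 and 7945 UMIs per cell, and the libraries shared 6 barcode sequences. In the fresh library the 36 genes summed to 21603 UMIs, and in the cryopreserved one to 26317 UMIs. Scaled to 1000000 UMIs of the same cells (CPM), that was 669 (interval 660 to 678) and 717 (interval 709 to 726), a cryopreserved to fresh ratio of 1.07 (interval 1.05 to 1.09). Without the gene maximum the levels were 746 and 769 CPM and the ratio 1.03 (interval 1.02 to 1.05). With neither the gene nor the UMI maximum they were 772 and 771 CPM and the ratio 0.998 (interval 0.983 to 1.01). The level of the set thus depended on which barcodes were kept, and most in the fresh library.

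Barcodes were clustered with the replication and G2/M genes left out of the variable features, and 23 of 24 clusters were assigned to 9 lineages by marker genes. The order of the summed level was the same at its top and bottom in both libraries, as the plot of level by lineage shows. T or NK-like cells were highest, with 1508 CPM (interval 1435 to 1583) in the 145 fresh cells and 1572 CPM (interval 1506 to 1640) in the 254 cryopreserved cells. Lymphatic endothelial-like cells followed with 1216 CPM (interval 1141 to 1294, 107 cells) and 1126 CPM (interval 1042 to 1214, 135 cells). Mast-like cells had 933 CPM (interval 818 to 1058, 68 cells) and 1081 CPM (interval 960 to 1212, 82 cells), and keratinocyte-like cells 767 CPM (interval 748 to 787, 530 cells) and 921 CPM (interval 903 to 939, 1057 cells). Fibroblast-like cells were lowest, with 527 CPM (interval 516 to 539, 1212 cells) and 504 CPM (interval 494 to 515, 1568 cells).

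Between keratinocyte-like and fibroblast-like cells lay 4 lineages, of which blood endothelial-like cells had the lowest value in both libraries. CD163/CD209 myeloid-like cells had 728 CPM fresh and 691 CPM cryopreserved, SMC or pericyte-like cells 689 and 736 CPM, Langerhans or other dendritic-like cells 688 and 709 CPM, and blood endothelial-like cells 626 and 617 CPM. Intervals of neighbours in this group overlapped in each library. Those of keratinocyte-like and myeloid-like cells overlapped in the fresh library, and those of lymphatic-like and mast-like cells in the cryopreserved one. No ratio intervals were computed for these pairs, and overlap alone does not settle their order. The keratinocyte to fibroblast ratio was 1.46 fresh (interval 1.41 to 1.505) and 1.83 cryopreserved (interval 1.77 to 1.88). The mast to keratinocyte ratio was 1.22 and 1.17 within the maxima, but 1.02 fresh (interval 0.892 to 1.16) and 1.03 cryopreserved (interval 0.915 to 1.15) without the gene maximum, and 0.932 fresh (interval 0.817 to 1.06) with neither maximum. The T or NK to fibroblast ratio was 2.86 and 3.12, and the lymphatic to blood endothelial ratio 1.94 and 1.82. The same T or NK-like cells also held the summed G2/M genes at 2430 and 2824 CPM, against 949 and 1014 CPM in fibroblast-like cells.

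**Figure D1:**
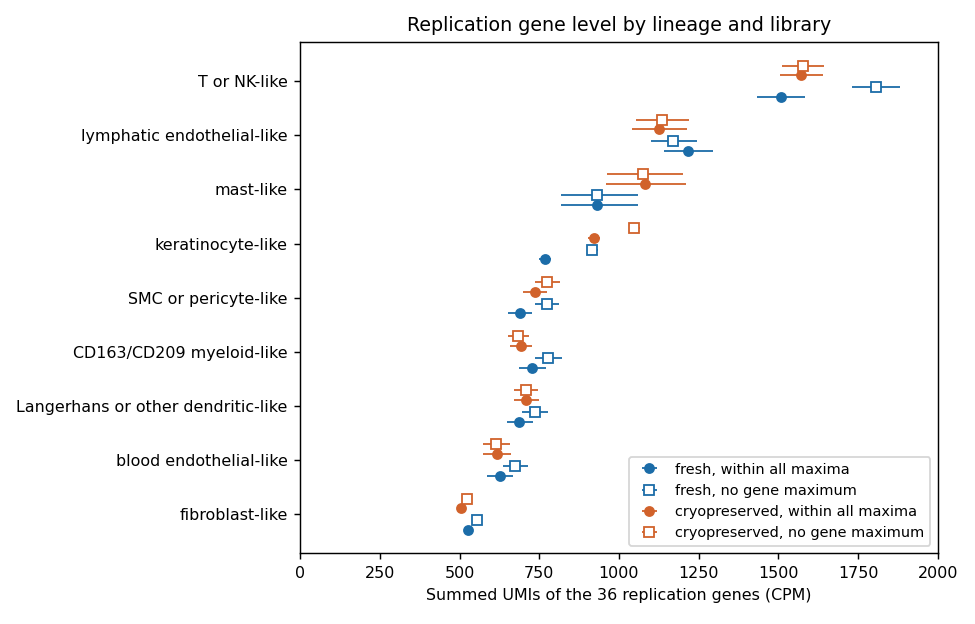
Summed UMIs of the 36 replication genes in CPM (x axis) for each lineage (y axis), by library, within all maxima and without the gene maximum; bars are exact Poisson 95% intervals. T or NK-like cells lie highest (1508 and 1572 CPM within the maxima) and fibroblast-like cells lowest (527 and 504 CPM).

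The 10 genes with most UMIs, SLBP, ATAD2, NASP, PCNA, GMNN, RFC2, USP1, POLD3, RRM1 and MCM7, carried most of these sums. The other 26 genes carried 25.5% of the set's UMIs in fresh cells and 26.6% in cryopreserved cells. Over these 26 genes alone, T or NK-like cells had 369 CPM fresh (interval 333 to 407) and 335 CPM cryopreserved (interval 304 to 367), and fibroblast-like cells had 127 and 111 CPM. Keratinocyte-like cells had 230 CPM fresh (interval 219 to 240) and 315 CPM cryopreserved (interval 305 to 326). In the cryopreserved library their interval overlapped that of T or NK-like cells. Without the gene maximum the cryopreserved keratinocyte-like cells had 384 CPM (interval 373 to 395). T or NK-like cells then had the lower value, 345 CPM (interval 315 to 377), though the intervals overlapped. In the fresh library without the gene maximum T or NK-like cells stayed higher, with 511 against 319 CPM. Within the maxima lymphatic-like cells had 320 and 289 CPM. Mast-like cells had 89.4 CPM fresh (interval 56.7 to 134, 23 UMIs) and 159 CPM cryopreserved (interval 115 to 214, 43 UMIs). Both intervals overlapped those of fibroblast-like cells (122 to 133 fresh and 106 to 117 cryopreserved). The mast-like value was the lower one in the fresh library and the higher one in the cryopreserved library. No ratio intervals were computed over these 26 genes, and overlap alone does not settle the orders. This split by abundance was made after the sums had been seen.

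Among the genes of origin licensing, GMNN encodes geminin, which keeps origins from being licensed again after S phase has begun. Its level was 96.4 CPM fresh and 102 CPM cryopreserved in lymphatic-like cells, 88.7 and 86.2 CPM in myeloid-like cells, 89.4 and 92.2 CPM in mast-like cells and 73.4 and 89.2 CPM in T or NK-like cells. It was 36.02 and 41.2 CPM in fibroblast-like cells, 37.6 and 45.9 CPM in keratinocyte-like cells and 39.3 and 39.8 CPM in SMC or pericyte-like cells. Langerhans or other dendritic-like cells lay between, at 43.9 and 72.8 CPM, so keratinocytes were not among the lineages where GMNN was high. CCNE2, the cyclin E2 partner of CDK2, was highest in lymphatic-like cells in both libraries (45.7 and 46.8 CPM) and lay at 6.21 and 8.18 CPM in keratinocyte-like and 14.0 and 11.5 CPM in fibroblast-like cells. CDC6, which loads the MCM helicase, had only 25 fresh and 34 cryopreserved UMIs in all cells.

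The helicase genes MCM4, MCM5, MCM6, MCM7, GINS2 and CDC45 together had 136 and 137 CPM in T or NK-like cells, 117 and 112 CPM in lymphatic-like cells, 84.0 and 116 CPM in keratinocyte-like cells and 45.1 and 52.8 CPM in fibroblast-like cells. MCM7 was highest in lymphatic-like (59.3 and 76.8 CPM) and T or NK-like cells (55.5 and 68.5 CPM), against 25.5 and 33.5 CPM in keratinocyte-like and 22.3 and 27.2 CPM in fibroblast-like cells. GINS2, a subunit of the GINS complex, followed another pattern, with 19.5 and 22.2 CPM in keratinocyte-like cells and 2.03 and 2.20 CPM in fibroblast-like cells. Genes of the same helicase therefore differed in how far keratinocyte-like cells stood above fibroblast-like cells.

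Of the polymerase and clamp genes, PCNA, the sliding clamp, was highest in T or NK-like cells (162 and 225 CPM), followed by lymphatic-like cells (92.7 and 102 CPM). It lay at 51.2 and 67.7 CPM in keratinocyte-like and 38.6 and 51.0 CPM in fibroblast-like cells, and in Langerhans or other dendritic-like cells it was 27.8 CPM fresh and 59.1 CPM cryopreserved. RFC2, a subunit of the clamp loader, and POLD3, an accessory subunit of polymerase delta, were highest in mast-like cells. For RFC2 that was 237 and 129 CPM from 61 and 35 UMIs, with 80.9 and 104 CPM in myeloid-like cells and 14.0 and 22.1 CPM in SMC or pericyte-like cells. For POLD3 it was 159 and 170 CPM from 41 and 46 UMIs, with 84.6 and 67.8 CPM in T or NK-like cells and 28.8 and 24.3 CPM in keratinocyte-like cells. POLA1 lay at 59.2 and 39.1 CPM in T or NK-like cells, 38.8 and 44.1 CPM in keratinocyte-like cells and 14.6 and 10.5 CPM in fibroblast-like cells. DSCC1, a subunit of an alternative clamp loader, had 58 and 71 UMIs in all cells.

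The 2 measured genes of nucleotide supply marked keratinocytes as well as T or NK-like cells. TYMS, thymidylate synthase, had 41.4 and 47.2 CPM in T or NK-like cells, 25.5 and 39.7 CPM in keratinocyte-like cells and 4.38 and 7.02 CPM in fibroblast-like cells. RRM1, the large subunit of ribonucleotide reductase, had 67.7 and 54.5 CPM, 59.0 and 62.1 CPM, and 17.8 and 17.6 CPM in the same lineages. Its lowest levels were in myeloid-like cells (14.3 and 10.2 CPM), Langerhans or other dendritic-like cells (16.1 and 16.7 CPM) and blood endothelial-like cells (16.6 and 11.9 CPM), close to that of fibroblast-like cells.

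Among the genes of fragment processing and repair, UNG, which removes uracil from DNA, and BLM, a helicase of recombination intermediates, had 233 and 213 UMIs in fresh and 340 and 279 UMIs in cryopreserved cells. The nuclease gene EXO1 had 17 and 37 UMIs. FEN1, the flap nuclease of Okazaki fragments, was listed with 1 UMI in each library, and RAD51AP1, a recombination factor, with 0 UMIs, which allows up to 3. In RefSeq, RAD51AP1 overlaps another gene on its own strand, the only member of 38 to do so, and 13 overlap a gene on the other strand. How these overlaps affected the counts was not tested.

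Among the fork checkpoint genes, USP1 encodes a deubiquitinase that acts on PCNA. It lay between 26.7 and 61.8 CPM in the 8 other named lineages of both libraries, and in mast-like cells it was 27.2 CPM fresh and 84.8 CPM cryopreserved (7 and 23 UMIs). DTL, which brings the CUL4 ubiquitin ligase to PCNA on DNA, was highest in the endothelial lineages. It had 45.7 and 40.1 CPM in lymphatic-like cells and 39.5 and 25.4 CPM in blood endothelial-like cells, against 17.4 and 8.97 CPM in fibroblast-like and 2.46 and 4.33 CPM in keratinocyte-like cells. CLSPN, the checkpoint mediator claspin, had 234 and 361 UMIs, and TIPIN had 394 and 449 UMIs.

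Among the chromatin and histone genes, SLBP, which binds the stem-loop of histone mRNA, had 283 and 385 CPM in T or NK-like cells, 216 and 189 CPM in lymphatic-like cells, 113 and 184 CPM in mast-like cells, 85.3 and 115 CPM in keratinocyte-like cells and 76.0 and 82.4 CPM in fibroblast-like cells. NASP, a histone chaperone, was highest in lymphatic-like cells (162 and 142 CPM) and lowest in mast-like cells (11.7 and 14.8 CPM, from 3 and 4 UMIs). ATAD2, a bromodomain protein, had 185 and 157 CPM in T or NK-like cells, 163 and 111 CPM in Langerhans or other dendritic-like cells, 108 and 104 CPM in keratinocyte-like cells and 49.6 and 30.02 CPM in fibroblast-like cells. UHRF1, which carries DNA methylation through replication, lay at 27.3 and 33.2 CPM in T or NK-like cells and at 6.23 and 4.52 CPM in fibroblast-like cells. HELLS, a chromatin remodeller, CHAF1B, a subunit of the chromatin assembly factor, CASP8AP2, which is needed for histone gene transcription, and WDR76 had 127 to 284 UMIs in fresh and 154 to 297 UMIs in cryopreserved cells. In the last group, CDCA7, a partner of HELLS, had 6.08 and 9.03 CPM in keratinocyte-like cells and 0.508 and 0.061 CPM in fibroblast-like cells (8 UMIs and 1 UMI). The repressor E2F8 had 38 and 79 UMIs and the centromere gene CENPU 132 and 230 UMIs in all cells.

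**Figure D2:**
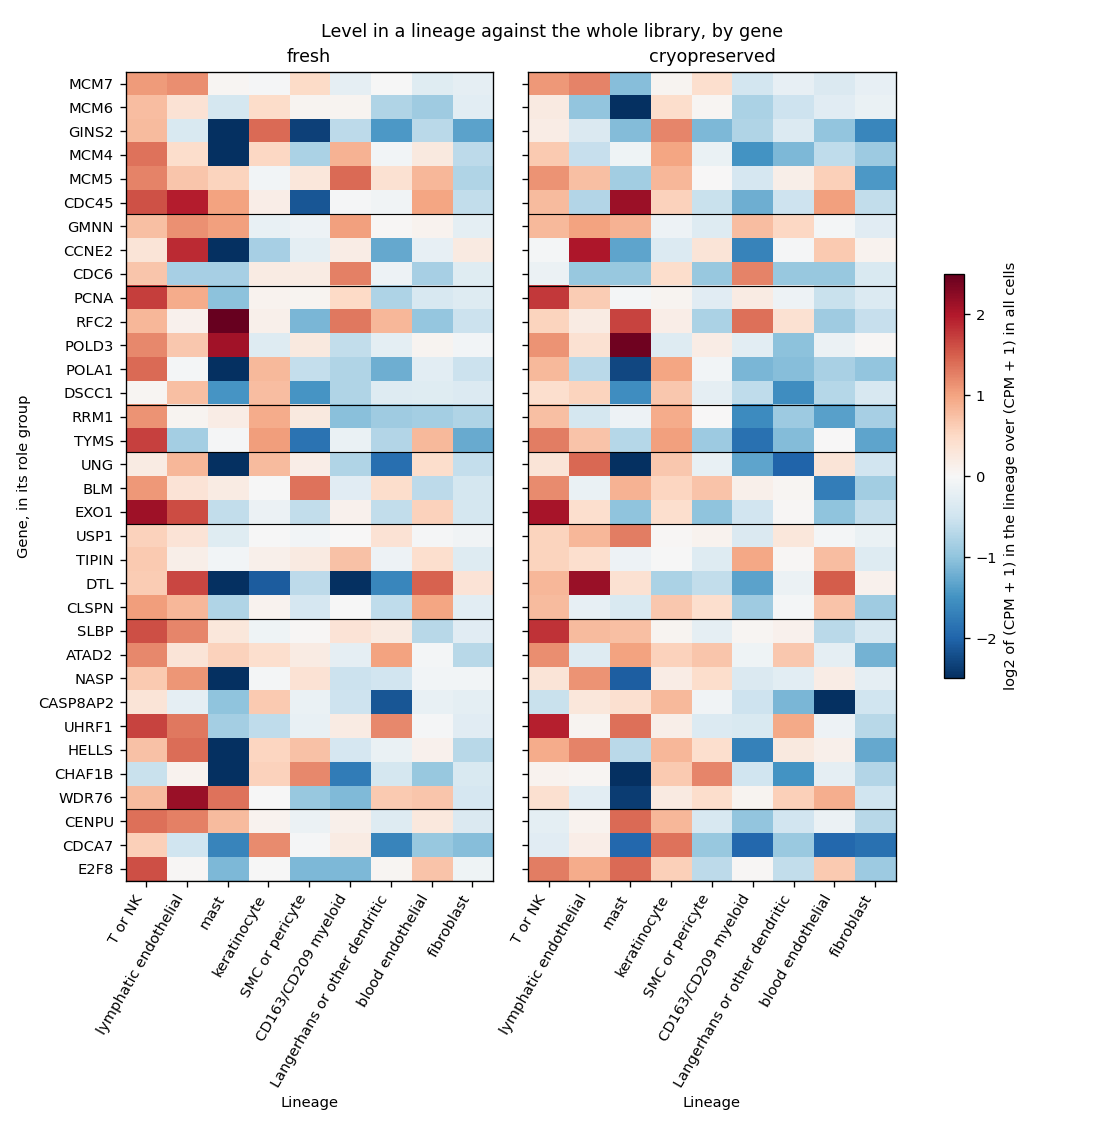
Level of each replication gene in each lineage against all cells of the same library, as log2 of (CPM + 1) in the lineage over (CPM + 1) in all cells, with genes on the y axis in their role groups and lineages on the x axis, fresh and cryopreserved side by side; values past the colour scale are drawn at its ends. T or NK-like cells are above the library for most genes, while DTL and CCNE2 are highest in lymphatic endothelial-like cells and RFC2 and POLD3 in mast-like cells.

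Counts of genes past 2-fold put these patterns beside all other genes, where genes needed 50 UMIs in the 2 sets of cells compared. In T or NK-like cells against all other named lineages, 15 of 31 replication genes that passed this minimum were at least 2-fold higher in the fresh library, against 16.2% of all genes. In the cryopreserved library that was 12 of 32, against 15.2%. No replication gene was 2-fold lower (all genes 28.1% and 29.3%). UHRF1 was 3.83-fold and 4.797-fold higher, PCNA 3.63-fold and 3.82-fold, SLBP 3.29-fold and 3.89-fold and TYMS 3.80-fold and 2.65-fold. The median difference over the genes that passed was 0.98 and 0.84 on the log2 scale, beside -0.10 and -0.16 over all genes.

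In lymphatic endothelial-like cells 12 of 31 genes were at least 2-fold higher than in the other lineages in the fresh library (15.9% of all genes) and 8 of 32 in the cryopreserved library (18.2%). DTL was 3.58-fold and 5.18-fold higher and CCNE2 4.14-fold and 4.62-fold. None was 2-fold lower in the fresh library (20.6% of all genes), and MCM6 (5 UMIs) and CDC45 (1 UMI) were in the cryopreserved one (18.3%). CDC45 had 13 UMIs and MCM6 17 UMIs in the fresh lymphatic-like cells. In keratinocyte-like cells 8 of 31 and 16 of 32 genes were at least 2-fold higher than in the other lineages (17.2% and 18.3% of all genes). In fibroblast-like cells 10 of 31 and 18 of 32 were at least 2-fold lower (24.7% and 26.9%) and none was 2-fold higher (12.7% and 12.4%).

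Directly against fibroblast-like cells, 11 of 30 genes were at least 2-fold higher in keratinocyte-like cells in the fresh library (23.2% of all genes) and 18 of 32 in the cryopreserved library (25.2%). GINS2 was 9.60-fold and 10.1-fold higher, TYMS 5.81-fold and 5.66-fold and RRM1 3.31-fold and 3.52-fold. The minimum of UMIs was set on both lineages together. GINS2 and CDCA7 reached it only through keratinocyte-like cells, so for these genes the minimum itself favoured a high ratio. In the other direction, DTL stood at 0.141 and 0.482 of the fibroblast level in fresh and cryopreserved cells. CCNE2 stood at 0.444 and 0.713, so that 2 genes were past 2-fold lower in the fresh library (21.4% of all genes) and 1 in the cryopreserved (20.1%). MCM5 differed between the libraries in this respect, with a ratio of 1.83 fresh and 6.61 cryopreserved. The median difference was 0.62 fresh and 1.51 cryopreserved on the log2 scale, beside 0.22 and 0.30 over all genes.

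Of the 5 keratinocyte-like clusters, 1 stood out by its summed G2/M level, with 4898 and 6061 CPM. This cluster held 23 fresh and 71 cryopreserved cells within the maxima and is called the G2/M-rich cluster here. It was picked by the number of replication and G2/M genes among its leading genes. Its higher replication genes are therefore not independent of that choice. Its replication genes summed to 1327 CPM fresh and 1842 CPM cryopreserved. The cluster with KRT1 and KRT10, keratins of the suprabasal layers, was lowest with 634 and 751 CPM, and the other keratinocyte-like clusters had 713 to 879 CPM fresh and 778 to 989 CPM cryopreserved. In barcodes under the mitochondrial limit alone, 17 of 33 replication genes were at least 2-fold higher in the G2/M-rich cluster than in the other keratinocyte-like clusters in the fresh library (5.5% of all genes) and 20 of 32 in the cryopreserved library (5.38%). E2F8 had 82 UMIs in this cluster against 12 in the other keratinocyte-like clusters of the fresh library, and 70 against 8 in the cryopreserved library. It reached the minimum of 50 UMIs only through this cluster, as did EXO1 in the fresh library (47 against 4 UMIs), so both had to be higher to be counted. CENPU was 7.65-fold and 7.69-fold, UHRF1 7.07-fold and 8.06-fold, TYMS 6.14-fold and 4.88-fold and PCNA 3.21-fold and 3.91-fold higher. SLBP stood at 1.53 and 1.79 of the level in the other clusters and POLD3 at 0.997 and 1.07. Without this cluster, a comparison added after the data were seen, the cryopreserved to fresh ratio of the summed genes in keratinocyte-like cells was 1.12, and the keratinocyte to fibroblast ratio was 1.41 fresh and 1.66 cryopreserved.

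Because dividing cells tend to hold more RNA, the gene maximum was examined on its own. Under the mitochondrial limit alone, barcodes above 4500 genes were 593 of 3375 in the fresh library (17.6%) and 190 of 4414 in the cryopreserved library (4.30%). They held 44.9% (interval 44.5 to 45.4%) of the replication gene UMIs of the fresh library, beside 36.3% of all UMIs and 52.8% of G2/M UMIs. In the cryopreserved library they held 17.2% (interval 16.8 to 17.7%), beside 11.1% and 20.0%. In keratinocyte-like cells the share was 61.3% fresh and 27.0% cryopreserved, where all UMIs had 49.5% and 16.1%. In fibroblast-like cells it was 41.1% and 13.9%, where all UMIs had 36.7% and 10.9%. The excess did not hold in every lineage. In fresh lymphatic-like cells the share was 18.5% (interval 16.3 to 20.8%), below the 23.7% of all UMIs, from 8 barcodes above the maximum. The other fresh lineages had an excess, apart from mast-like cells, which had no barcode above the maximum. Outside keratinocyte-like and fibroblast-like cells that excess rested on 7 to 13 barcodes per lineage. Among the remaining cryopreserved lineages only SMC or pericyte-like cells had a share whose interval lay above that of all UMIs (6.70% against 1.72%). It came from 2 of 379 barcodes, both in the top 6% by doublet score (Scrublet). The intervals count UMIs and do not cover the small number of barcodes. The intervals of the rest included the share of all UMIs. The maximum removed 77 of the 100 fresh and 36 of the 107 cryopreserved barcodes of the G2/M-rich cluster, with 92.2% and 56.4% of its replication gene UMIs.

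The share above the maximum was higher than that of all UMIs for 29 of the 34 genes with at least 50 UMIs in the fresh library (48.3% of all genes) and for 32 of 34 in the cryopreserved library (51.9%). In the fresh library it was highest for EXO1 (83.3%), E2F8 (79.3%), TYMS (70.5%) and CENPU (69.4%). In the cryopreserved library it was highest for E2F8 (39.7%), CENPU (39.0%), CDC6 (35.8%) and CDCA7 (33.3%), and TYMS (32.0%) and EXO1 (31.5%) followed. It was lowest for CCNE2 (31.0% and 7.75%) and POLD3 (33.2% and 9.78%), both below all UMIs in both libraries. NASP, GMNN and SLBP lay close to the share of all UMIs. In the fresh library EXO1 (90 of 108 UMIs above), E2F8 (146 of 184) and CDC6 (53 of 78) reached 50 UMIs only through barcodes above the maximum. So did CDC6 (19 of 53) and EXO1 (17 of 54) in the cryopreserved library. For these genes the minimum itself favoured a high share. The counts within lineages that follow used the same kind of minimum. Within keratinocyte-like cells, so that lineage was held fixed, 20 of 33 genes were at least 1.5-fold higher in CPM above the maximum than within it in the fresh library (9.99% of all genes), and 24 of 32 in the cryopreserved library (13.6%). In fibroblast-like cells these counts were 17 of 30 (6.49%) and 13 of 27 (14.1%). Barcodes in the top 6% by doublet score (Scrublet) made up 15.3% of fresh barcodes above the maximum and 3.92% of those within it, and 26.8% and 4.92% of cryopreserved ones. Without those barcodes the shares of replication gene UMIs above the maximum were 41.1% and 15.3%. The share of all UMIs was not recomputed without them, so whether the excess remained was not tested.

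**Figure D3:**
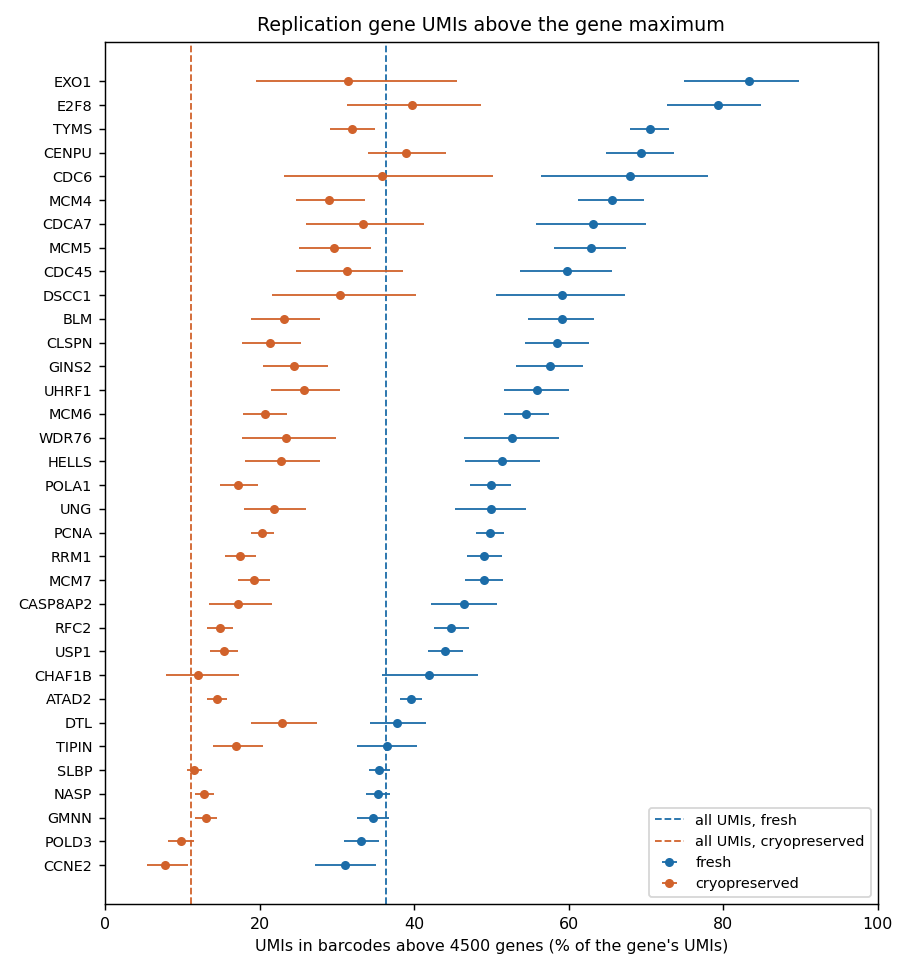
Share of each gene's UMIs found in barcodes above 4500 genes (x axis, percent) for the 34 genes with at least 50 UMIs, by library, with exact binomial 95% intervals; dashed lines give the share of all UMIs. EXO1 and E2F8 lie farthest to the right in the fresh library (83.3% and 79.3%), where they reached 50 UMIs only through these barcodes. CCNE2 and POLD3 lie left of the dashed lines in both libraries.

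For single genes the cryopreserved to fresh ratio was computed with TMM scaling on summed counts within the maxima. At least 1.5-fold higher in the cryopreserved library were 6 of 34 genes (7.16% of all genes), and 1 was at least 1.5-fold lower (5.24%). EXO1 had 17 fresh and 37 cryopreserved UMIs, a log2 ratio of 0.98 (interval 0.11 to 1.90). E2F8 had 38 and 79 UMIs, a log2 ratio of 0.91 (interval 0.33 to 1.51). TYMS had 384 and 692 UMIs, a log2 ratio of 0.70. CENPU, MCM4 and MCM5 had log2 ratios of 0.65, 0.65 and 0.64. The gene that was lower was DTL, with 439 and 303 UMIs and a log2 ratio of -0.68 (interval -0.90 to -0.47), and POLD3 followed with 1170 and 1126 UMIs and -0.20. The median log2 ratio over the 34 genes was 0.20, beside 0.02 over all genes, and 28 of the 34 lay above 0 (52.7% of all genes).

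Without the gene maximum none of the 34 genes was past 1.5-fold in either direction (all genes 6.14% higher and 4.28% lower). Their median log2 ratio was 0.06, and 22 of the 34 lay above 0 (51.8% of all genes). The log2 ratio of EXO1 was then -0.05 and that of E2F8 0.36, while DTL stayed lower at -0.56. With neither maximum the median was -0.09, and 13 of the 34 lay above 0 (50.1% of all genes). The G2/M genes moved the same way, with medians of 0.43, 0.14 and -0.26 under the 3 selections of barcodes. By lineage, the summed level within the maxima differed between the libraries by more than counting error in keratinocyte-like cells (ratio 1.201, interval 1.16 to 1.24) and in fibroblast-like cells (ratio 0.957, interval 0.928 to 0.987). The intervals of the other 7 named lineages included 1. Without the gene maximum the keratinocyte ratio was 1.14 and the fibroblast ratio 0.944. The intervals of 3 more lineages then lay below 1. The ratios were 0.880 in myeloid-like cells (interval 0.818 to 0.947) and 0.911 in blood endothelial-like cells (interval 0.832 to 0.997). In T or NK-like cells the ratio was 0.873, where the 151 fresh cells had 1805 CPM in place of the 1508 CPM of the 145 cells within the maxima. Fresh myeloid-like cells rose only from 156 to 162 and fresh blood endothelial-like cells from 201 to 209. These intervals count UMIs and do not cover the small number of added barcodes.

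**Figure D4:**
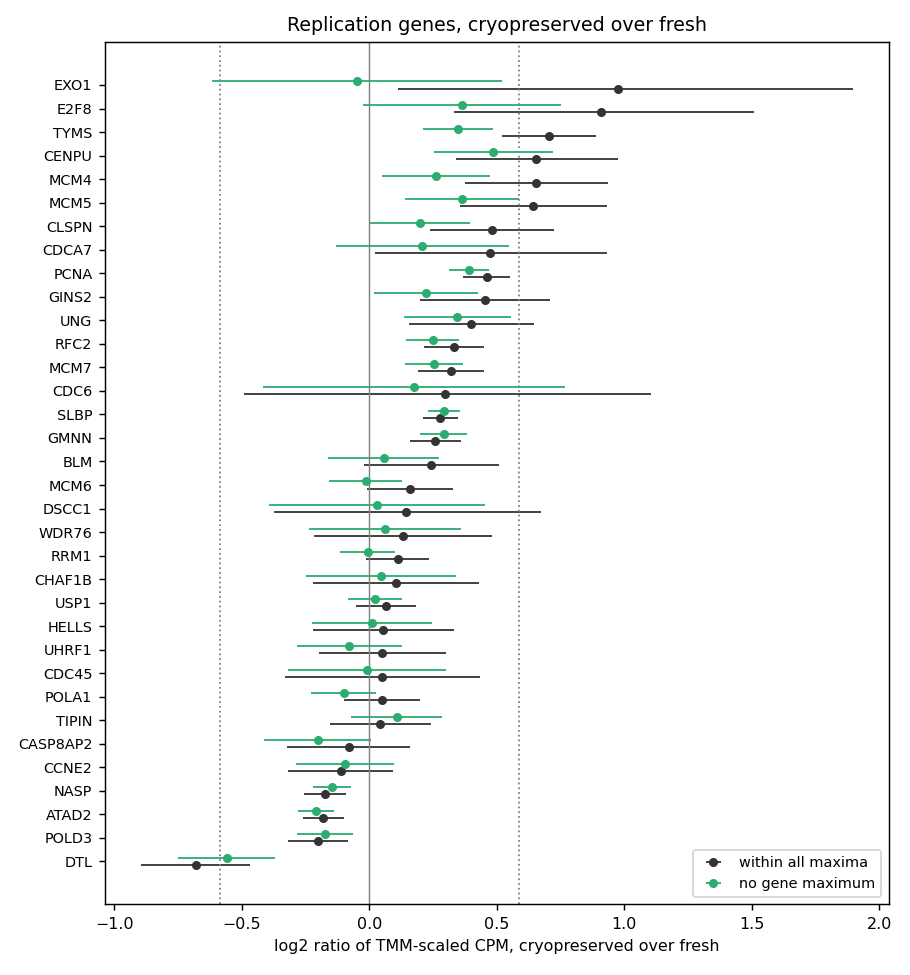
Log2 ratio of TMM-scaled CPM, cryopreserved over fresh (x axis), for each of the 34 genes with at least 50 UMIs, within all maxima and without the gene maximum; bars are exact 95% intervals for counting error. EXO1 and E2F8 lie highest within the maxima (0.98 and 0.91), and DTL lies lowest (-0.68).

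Whether the genes were high in the same cells was examined by leaving out 1 gene at a time. Cells were thinned to 2000 UMIs, ranked by the UMIs of the other replication genes, and the CPM of the left-out gene in the 5% of cells ranked highest was set against that in the rest. In the fresh library 21 of 31 genes with at least 50 UMIs were at least 2-fold higher in those 135 of 2699 cells (11.1% of all genes), and in the cryopreserved library 25 of 32 in those 201 of 4023 cells (9.39%). None was 2-fold lower (6.43% and 9.67%). The highest ratios in the fresh library were those of UHRF1 (10.7, interval 8.02 to 14.0) and CENPU (9.00, interval 5.93 to 13.4). In the cryopreserved library they were those of E2F8 (12.9, interval 7.90 to 20.7) and CDCA7 (10.6, interval 6.82 to 16.1). Genes with few UMIs, such as E2F8, may have reached 50 UMIs only through the highest-ranked cells. For such genes the minimum itself favoured a high ratio. The lowest were CASP8AP2 (1.19, interval 0.627 to 2.08) and CHAF1B (1.42, interval 0.600 to 2.87) in the fresh library, and POLD3 (1.53, interval 1.19 to 1.93) and POLA1 (1.67, interval 1.26 to 2.19) in the cryopreserved one. The genes with most UMIs were among the weaker ones, with SLBP at 1.89 and 1.95 and NASP at 1.56 and 1.85, while PCNA stood at 2.74 and 3.62.

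Lineage alone can raise such a ratio, so the ranking was repeated within lineages. In keratinocyte-like cells 5 of 22 genes were at least 2-fold higher in the fresh library (5.77% of all genes) and 20 of 29 in the cryopreserved library (5.72%). In fibroblast-like cells these counts were 13 of 23 (8.32%) and 15 of 23 (8.37%). Over all lineages without the gene maximum, 32 of 33 fresh genes (10.2%) and 31 of 34 cryopreserved genes (10.9%) passed. Of the 4 sets of cells ranked within a lineage, fresh keratinocyte-like cells had the lowest count, and 32.1% of their barcodes under the mitochondrial limit lay above the gene maximum. Whether the removal of those barcodes lowered the count was not tested within the lineage.

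Per cell, the set was sparse. Cells were thinned to 2000 UMIs, and 76 fresh and 200 cryopreserved cells below that depth were left out. The median thinned cell held 1 UMI of the 36 genes and 30.9% of fresh and 29.2% of cryopreserved cells held none. A cell with at least 5 is called high here, which is a range of a count and not a cell type. High were 114 of 2699 fresh cells (4.22%, interval 3.50 to 5.05%) and 197 of 4023 cryopreserved cells (4.90%, interval 4.25 to 5.61%). Before thinning, 67.5% and 54.1% of cells held 5 or more. A cut of 4 in place of 5 gave 9.11% and 9.94%, so many cells lay next to the cut. No lineage is known to lack all of these genes, so the level that free RNA adds was not measured.

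T or NK-like cells were high in 27 of 145 fresh cells (18.6%) and 47 of 245 cryopreserved cells (19.2%), and lymphatic-like cells in 16.2% and 10.3%. Keratinocyte-like cells were high in 3.05% (interval 1.76 to 4.91%) and 7.03% (interval 5.55 to 8.75%), and fibroblast-like cells in 2.68% and 1.83%. In the G2/M-rich cluster it was 3 of 23 fresh and 27 of 71 cryopreserved cells (13.04% and 38.0%). Without the gene maximum the keratinocyte shares were 6.91% and 8.94%. T or NK-like cells made up 23.7% and 23.9% of the high cells, although they were 5.37% and 6.09% of the thinned cells. High cells held a median of 4 thinned UMIs of G2/M genes in both libraries, against 2 in the others. This contrast was not made within lineages. T or NK-like cells, more frequent among the high cells, also had a higher summed G2/M level than fibroblast-like cells.

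Replication genes outside the set, from a list of 44 with 36 present, behaved alike in part. In the left-out ranking, here by all genes of the set, 23 of 34 were at least 2-fold higher in the highest 5% of fresh cells and 27 of 35 in those of the cryopreserved library, beside the 11.1% and 9.39% of all genes given above. The helicase gene MCM3 stood at 6.74 and 10.5 and GINS1 at 6.39 and 10.8. ORC1, the origin recognition subunit that is regulated by the cell cycle, stood at 10.1 in the cryopreserved library and was under the minimum of 50 UMIs in the fresh one. It had only 56 UMIs in the cryopreserved cells within the maxima, so the minimum itself favoured a high ratio. Of the 5 with most UMIs, DUT, which removes dUTP, stood at 4.74 and 4.93, and the thymidine kinase gene TK1 at 1.72 and 1.94. RFC1, the large clamp loader subunit, stood at 1.71 and 1.53, POLE4, a small subunit of polymerase epsilon, at 0.893 and 1.02, and ORC4, another origin recognition subunit, at 0.954 and 0.973. Their log2 ratios between the libraries were 0.38 for DUT, 0.47 for TK1, -0.22 for RFC1, 0.15 for POLE4 and -0.03 for ORC4. Their median was 0.19 within the maxima, over the 35 that passed the minimum, and 0.12 without the gene maximum and -0.07 with neither maximum, over all 36.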

How the data were processed

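Per the labels, 1 fresh and 1 frozen (cryopreserved) pig skin sample were sequenced with a 10x Genomics 3′ kit. The authors mapped reads to Sscrofa11.1 with the Ensembl annotation (Cell Ranger 4.0.0 and STAR 2.5.1b in the submitters' processing notes) and deposited raw UMI counts per gene and barcode, without normalization. From these counts, barcodes at or under 10% mitochondrial UMIs (13 protein-coding mitochondrial genes) were integrated with Seurat 5.3.0 (R 4.3.3) on 2000 variable features and 30 dimensions and clustered at a resolution of 0.8. A cluster was named where at least 3 markers were 2-fold over the median cluster in at least 10% of its cells, since no deposited annotation of cells was used, so lineages may differ from the study's. Scrublet (scanpy 1.11.5) called 44 fresh and 59 cryopreserved barcodes, which were kept. CPM have exact Poisson, shares exact binomial (Clopper-Pearson) and ratios conditional exact binomial 95% intervals. Ratios of single genes used TMM factors (edgeR 4.0.16), and DESeq2 1.42.0 size factors were an alternative. UMIs from a 3′ kit were not compared between genes. Named genes were the 10 with most UMIs, the 2 highest and 2 lowest ratios between libraries and in the left-out ranking, and the 5 other replication genes with most UMIs. Genes named beyond these stand for their role group and were picked after their values were seen. The members and lists were chosen with earlier results of these data known. The computation was tested on simulated data.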

Additional observations from a re-analysis of the deposited data

Results flagged for a closer look

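The summed replication gene level moved in opposite directions between the libraries in the 2 largest lineages, and the difference between these changes was not tested. Within the maxima the cryopreserved to fresh ratio was 1.201 (interval 1.16 to 1.24) in keratinocyte-like cells and 0.957 (interval 0.928 to 0.987) in fibroblast-like cells. The ratios depended on which barcodes were kept. They were 1.14 and 0.944 without the gene maximum, and 1.06 and 0.924 with neither maximum. With 1 library per condition, the library, the animal and the freezing cannot be told apart.

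Among genes without a symbol in the deposited list, the identifiers that the reference assigns to PRIM1 and UBR7 held UMIs, which the sums above do not include. PRIM1, a subunit of primase, had 162 fresh and 184 cryopreserved UMIs, at 8.92 and 10.1 CPM in keratinocyte-like cells and 4.13 and 2.81 CPM in fibroblast-like cells. UBR7, a ubiquitin ligase of histones, had 278 and 352 UMIs, at 11.9 and 16.3 CPM in keratinocyte-like cells and 6.35 and 5.74 CPM in fibroblast-like cells. No identifier was matched to RRM2.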

How the results depend on the processing

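Of 112 alternatives, 63 left the value within its counting interval (or a count within 1.5 times), 48 moved it and 1 turned its direction. The cryopreserved to fresh ratio over all cells (1.07) was 1.03 without the gene maximum, 0.998 with neither maximum, 1.10 with TMM or DESeq2 factors, and 1.04 with the fresh library's lineage shares in both. In keratinocyte-like cells (1.201) it was 1.14 without the gene maximum and 1.06 with neither maximum. The keratinocyte to fibroblast ratio (1.46 fresh, 1.83 cryopreserved) was 1.65 and 2.01 without the gene maximum, 1.77 and 2.03 with neither, and 1.51 and 1.91 without SLBP. The share of UMIs above the gene maximum (44.9% and 17.2%) was 41.1% and 15.3% without the highest doublet scores, 43.3% and 15.6% without the 5 cells richest in these genes, 46.2% and 18.2% without SLBP, 21.7% and 3.14% at a maximum of 5500 genes, and 43.4% fresh without the mitochondrial limit. The share of high cells (4.22% and 4.90%) was 3.15% and 3.26% without SLBP, 5.79% and 5.77% at 3 of 1000 UMIs, 9.11% and 9.94% at 4 of 2000, and 0.556% and 0.646% at 8 of 2000. In the fresh library it was 5.37% without the gene maximum and 5.67% with neither. The 7 of 34 genes past 1.5-fold between the libraries (all genes 7.16% higher and 5.24% lower) became 0 of 34 without the gene maximum (6.14% and 4.28%). With neither maximum 1 of 34 was past it. The left-out ranking gave 21 of 31 genes fresh and 25 of 32 cryopreserved (11.1% and 9.39% of all genes). It gave 5 of 22 in fresh keratinocyte-like cells (5.77%) and 13 of 23 and 15 of 23 in fibroblast-like cells (8.32% and 8.37%). Without the gene maximum it gave 32 of 33 fresh genes (10.2%). Fewer genes passed the minimum within a lineage, so the counts are not on the same base.

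Alternatives chosen after seeing the data left out the G2/M-rich keratinocyte cluster, which gave 1.04 over all cells, 1.12 in keratinocyte-like cells, 1.66 for keratinocyte to fibroblast in the cryopreserved library, and shares above the maximum of 37.7% and 11.9%. Leaving out the 10 genes with most UMIs, likewise added, gave 1.12 over all cells, 1.37 in keratinocyte-like cells, keratinocyte to fibroblast ratios of 1.81 fresh and 2.83 cryopreserved, and shares above the maximum of 54.7% and 23.7%. The causes of these shifts were not tested, beyond the fewer or more barcodes and genes that each alternative counts. The share of all UMIs above the maximum was not recomputed for any alternative. No paired analysis was possible because each condition has 1 library. For the same reason no replicate could be left out. FEN1 and RAD51AP1 had too few UMIs for any comparison, and depth limits EXO1, CDC6, E2F8 and DSCC1 and the mast-like cells.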
